A study of Mus musculus with 9 samples.

Results

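Eph receptors and ephrins of the colonic crypt were examined in the RNA-seq count table of intestinal epithelial cells (IECs). The set was chosen by gene symbol as 10 genes, 6 receptors (Epha1, Epha2, Epha4, Ephb2, Ephb3 and Ephb4) and 4 ligands (Efna1, Efna3, Efnb1 and Efnb2), out of 46095 symbols in the table. All 10 passed the filter on low counts, as did 14593 genes in all. IECs were released with EDTA from the colons of Smad4 Vil-KO mice (4 libraries, S-1 to S-4) and of Smad4 Vil-KO;Setd2 Vil-KO animals (5 libraries, DDKO-1 to DDKO-5) on a C57BL/6j background. In both genotypes Villin-Cre, which is active in the gut epithelium, recombined floxed Smad4, and in the second it also recombined floxed Setd2, which encodes the enzyme that trimethylates lysine 36 of histone H3 (the double knockout below). All mice received azoxymethane (AOM), a carcinogen, at 10 mg/kg at 8 weeks of age, and dextran sodium sulfate (DSS), which injures the epithelium, at 2%, and were sampled at 10 days. No group with intact Smad4 was analysed here, so every comparison below is between genotypes that share the Smad4 deletion. The labels do not state that each library came from a different mouse, and the p-values then measure the spread between these libraries.

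Eph receptors form the largest family of receptor tyrosine kinases, and their ephrin ligands are held on the membrane of neighbouring cells, by a lipid anchor in the A class and by a transmembrane segment in the B class. Binding therefore happens where cells touch, and it signals into the receptor cell and into the ligand cell. In the intestinal crypt Ephb2 and Ephb3 are targets of Wnt signalling and are made mostly by cells near the crypt base, ephrin-B1 and ephrin-B2 are made by the differentiated cells above, and the opposed gradients keep cells in their place along the crypt axis.

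The libraries held between 12487129 and 17120202 counts, so that 1 count was worth between 0.0593 and 0.0793 CPM (counts scaled to library size with TMM factors), and the 10 genes together took between 0.0687% and 0.0819% of a library. Setd2 lay between 99.0 and 119.9 CPM in Smad4 Vil-KO and between 53.8 and 86.9 CPM in double-knockout mice (log2 fold change -0.77, adjusted p = 0.00756, edgeR), and Smad4, deleted in both, had 64.1 ± 19.0 and 70.2 ± 34.3 CPM (SD, n = 4 and n = 5). Counts of 4 Y-linked genes summed to 4907, 4745 and 3857 in DDKO-1, DDKO-2 and DDKO-5, to 28 in DDKO-3, to 0 in DDKO-4, and to no more than 1 in any Smad4 Vil-KO library, and the log2 fold change in the other 6 libraries is given below beside each of the 10 genes. Xist, the RNA made from the inactive X chromosome, was at 0.320 to 0.426 CPM in those 3 libraries and at 1325 to 1810 CPM in the other 6, so that sex, as read from these genes, was partly confounded with genotype. Of the other 6 libraries only DDKO-3 and DDKO-4 are double-knockout libraries. A model term for high Y-linked counts leaves the genotype difference to those same 6 libraries. Its fold changes then repeat theirs by construction and are no second check. In the 6 libraries without high Y-linked counts the log2 fold change of Setd2 was -1.04 (edgeR adjusted p = 0.000246) and that of Smad4 was -0.70 (edgeR adjusted p = 0.0507), against 0.13 over all 9. DDKO-1 and DDKO-2 stood apart, with a chi-square per gene between their counts of 18.6, against 42.1 to 63.1 between either and the other 3 double-knockout libraries (9.22 to 26.9 among those 3, and 10.8 to 38.7 among Smad4 Vil-KO libraries). DDKO-3 and DDKO-4, the double-knockout libraries without high Y-linked counts, were the most alike pair (9.22). The summed level of 10 epithelial markers was 17130 to 19390 CPM in Smad4 Vil-KO and 15370 to 18500 CPM in double-knockout libraries, and that of 12 leukocyte markers was 61.6 to 187 CPM over all libraries. In bulk RNA, fewer cells of a type and less RNA per cell cannot be told apart.

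The sequences just upstream of the genes are shown for the receptor that rose (Epha2), the ligand that fell (Efna3) and the pair of crypt base receptors that did not pass the test (Ephb2 and Ephb3). Each is 300 bases of GRCm38.p6 from RefSeq, read 5′ to 3′ along the gene from 250 bases before its start to 50 after. Capitals mark the GC box GGGCGG or its reverse complement and the TCF/LEF core CTTTGA or CTTTGT or their reverse complements. The sequences are as follows.
Epha2 (chr4:141300971-141301270, plus strand): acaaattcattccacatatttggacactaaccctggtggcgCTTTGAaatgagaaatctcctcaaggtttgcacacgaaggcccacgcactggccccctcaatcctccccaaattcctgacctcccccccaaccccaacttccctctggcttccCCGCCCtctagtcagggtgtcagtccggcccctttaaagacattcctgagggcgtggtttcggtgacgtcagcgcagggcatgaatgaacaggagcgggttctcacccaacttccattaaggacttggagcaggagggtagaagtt
Efna3 (chr3:89322890-89323189, minus strand): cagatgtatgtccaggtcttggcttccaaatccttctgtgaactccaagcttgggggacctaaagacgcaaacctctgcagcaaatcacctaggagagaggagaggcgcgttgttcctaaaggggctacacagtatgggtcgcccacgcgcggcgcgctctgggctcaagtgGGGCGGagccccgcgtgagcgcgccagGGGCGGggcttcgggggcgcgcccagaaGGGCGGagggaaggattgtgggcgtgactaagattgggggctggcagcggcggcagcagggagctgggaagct
Ephb2 (chr4:136835963-136836262, minus strand): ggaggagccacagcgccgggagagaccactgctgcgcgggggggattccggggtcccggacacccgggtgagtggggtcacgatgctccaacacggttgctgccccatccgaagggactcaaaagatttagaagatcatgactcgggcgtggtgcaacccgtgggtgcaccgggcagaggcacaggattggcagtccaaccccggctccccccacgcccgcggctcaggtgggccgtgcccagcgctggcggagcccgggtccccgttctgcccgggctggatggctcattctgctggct
Ephb3 (chr16:21204545-21204844, plus strand): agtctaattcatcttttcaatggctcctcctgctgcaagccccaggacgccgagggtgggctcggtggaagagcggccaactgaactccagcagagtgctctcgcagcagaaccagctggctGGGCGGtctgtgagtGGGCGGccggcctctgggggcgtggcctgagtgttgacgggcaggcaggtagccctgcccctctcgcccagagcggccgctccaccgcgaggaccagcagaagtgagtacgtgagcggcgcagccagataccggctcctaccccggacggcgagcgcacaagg

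All 10 genes matched the promoter set, with 12 start sites in all. The TCF/LEF core, the letters bound by the factors that carry Wnt signals to DNA, was found at 1 of the 12 start sites, that of Epha2, where CTTTGA began 209 bases before the start (position -209), and in 31.2% of all 32851 promoters of this length. It was not found in these windows of Ephb2 or Ephb3. The GC box was found at 10 of the 12 start sites, all but those of Ephb2 and Efnb1, against 35.7% of all promoters, and GC content ran from 54.7% to 72.3% against a median of 52.7%. The AP-1 letters TGACTCA or TGAGTCA were in 0 of the 12 and in 5.2% of all promoters. These are matches of letters only, and no binding was measured.

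Of the 10 genes, 2 passed the test (edgeR quasi-likelihood, Benjamini-Hochberg adjusted p under 0.05 over all genes tested). Epha2 rose and Efna3 fell. The other 8 did not pass, 3 with a positive and 5 with a negative log2 fold change. Among all genes tested 13.3% were called, 6.76% higher and 6.54% lower, so that 1 gene of 10 in each direction is close to the background of this comparison. The median log2 fold change of the 10 was -0.16, and that of all genes tested was -0.00059. The values of the 2 genotypes did not overlap for 3 of the 10 (Epha2, Efna3 and Efnb2), against 17.2% of all genes tested.

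**Figure D1:**
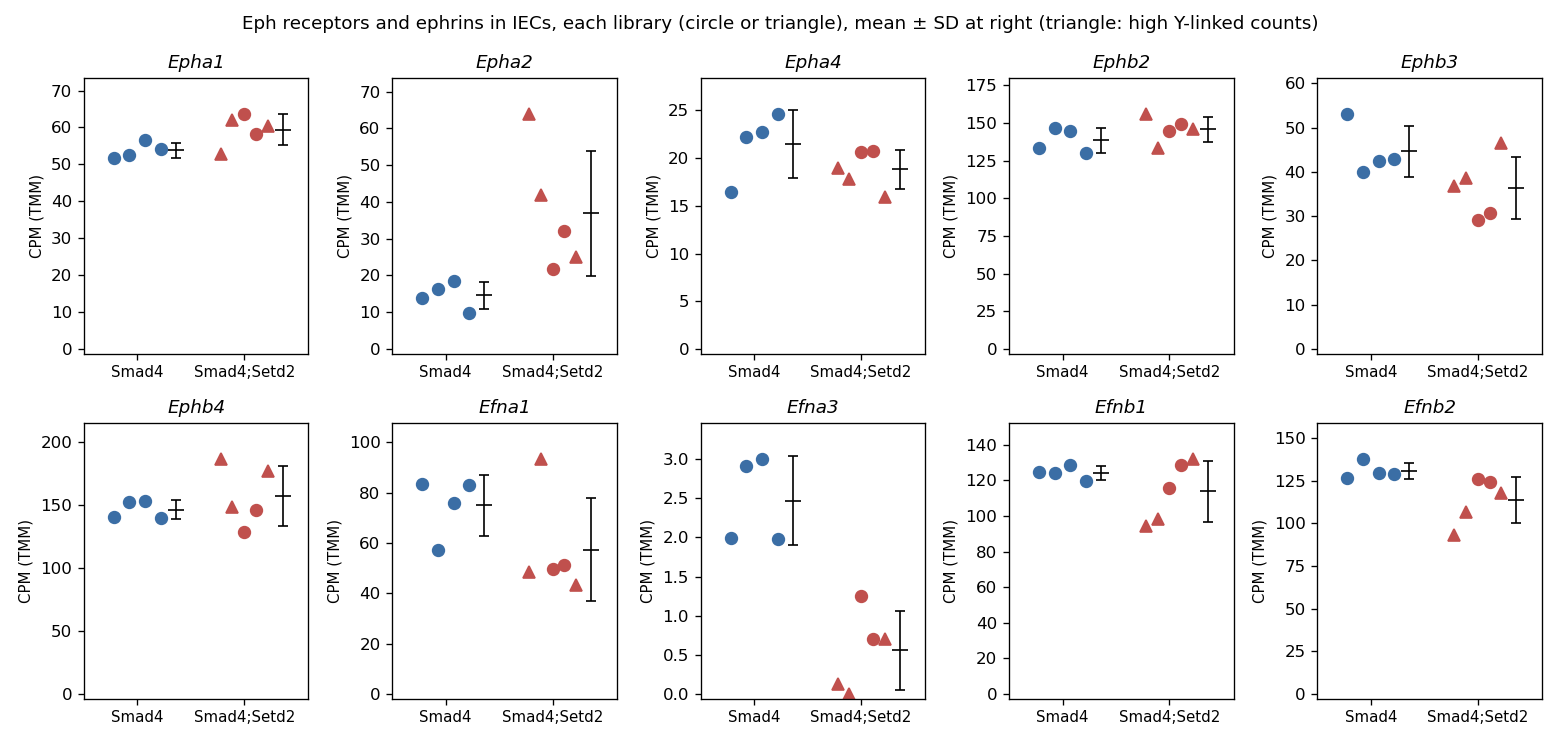
Level of each of the 10 genes in every library (vertical axes, CPM scaled with TMM factors, each from 0; horizontal axis, genotype, where Smad4 stands for the 4 Smad4 Vil-KO and Smad4;Setd2 for the 5 double-knockout libraries), with the mean and SD at the right of each group and triangles for the 3 libraries with high Y-linked counts. Epha2 lies between 9.83 and 18.5 CPM in the first group and between 21.6 and 64.0 CPM in the second, and Efna3 between 1.98 and 3.004 and between 0 and 1.26 CPM.

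Epha2 (chr4:141301240-141329384, plus strand, GRCm38), a receptor that binds the A-class ephrins, had 13.8, 16.4, 18.5 and 9.83 CPM in S-1 to S-4 and 64.0, 41.9, 21.6, 32.2 and 24.9 CPM in DDKO-1 to DDKO-5. Every double-knockout library was above every Smad4 Vil-KO library, and DDKO-1 and DDKO-2, which stood apart from the other double-knockout libraries, were the highest. Means were 14.6 ± 3.72 CPM in Smad4 Vil-KO (SD, n = 4) and 36.9 ± 17.01 CPM in double-knockout libraries (SD, n = 5), 2.52-fold higher (log2 fold change 1.33, SE 0.31, edgeR adjusted p = 0.0196). The call depended on single Smad4 Vil-KO libraries: without S-1 the log2 fold change was 1.31 (edgeR adjusted p = 0.0579) and without S-4 it was 1.18 (edgeR adjusted p = 0.0566). In the 6 libraries without high Y-linked counts, which keep DDKO-3 and DDKO-4 alone of the double knockout, it was 0.87 (edgeR adjusted p = 0.0286). With a term for those counts in all 9 libraries, which leaves the same comparison, it was also 0.87 (edgeR adjusted p = 0.138). Without both DDKO-1 and DDKO-2 it was 0.84 (edgeR adjusted p = 0.0259).

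Epha1 (chr6:42358487-42373268, minus strand), another A-class receptor of epithelia, had 51.8, 52.4, 56.5 and 54.3 CPM in Smad4 Vil-KO and 52.8, 61.9, 63.7, 58.1 and 60.4 CPM in double-knockout libraries. DDKO-1 lay within the Smad4 Vil-KO range and the other 4 lay above it. The log2 fold change was 0.14 (95% interval -0.03 to 0.31, edgeR adjusted p = 0.237), and 0.19 in the libraries without high Y-linked counts (edgeR adjusted p = 0.149). Epha1 shares 236 exonic bases with Zyx, which encodes the focal adhesion protein zyxin and itself rose from 55.0 to 81.2 CPM (log2 fold change 0.56, edgeR adjusted p = 0.0114), and whether counting used the strand is not given in the sources used here, so reads from the shared bases cannot be told apart.

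Epha4 (chr1:77367185-77515088, minus strand), a receptor that binds both classes of ephrin, had 16.4, 22.2, 22.7 and 24.7 CPM in Smad4 Vil-KO libraries. In double-knockout libraries it had between 15.95 and 20.7 CPM, with a median of 18.9. The groups overlapped, since S-1 was lower than 4 of the 5 double-knockout libraries, and the log2 fold change was -0.19 (95% interval -0.49 to 0.11, edgeR adjusted p = 0.360). Without the 3 libraries of high Y-linked counts it was -0.05 (edgeR adjusted p = 0.850).

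Ephb2 (chr4:136647539-136835988, minus strand), the crypt base receptor for the B-class ephrins, had 133, 147, 145 and 129.9 CPM in S-1 to S-4 and 156, 133, 145, 149 and 146 CPM in DDKO-1 to DDKO-5. The ranges overlapped, with S-1 and S-4 below every double-knockout library and DDKO-1 and DDKO-4 above every Smad4 Vil-KO library, and the means were 139 ± 8.32 CPM (SD, n = 4) and 146 ± 8.29 CPM (SD, n = 5). The log2 fold change was 0.07 with a 95% interval of -0.09 to 0.23, which leaves room for a rise of at most 1.18-fold (edgeR adjusted p = 0.522). In the libraries without high Y-linked counts it was 0.09 (edgeR adjusted p = 0.481).

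Ephb3 (chr16:21204755-21223305, plus strand), which acts beside Ephb2 and places Paneth cells in the small intestine, had 53.2, 40.1, 42.5 and 43.0 CPM in S-1 to S-4 and 36.9, 38.6, 29.1, 30.7 and 46.6 CPM in DDKO-1 to DDKO-5. Of the 5 double-knockout libraries, 4 lay below every Smad4 Vil-KO library and DDKO-5 lay within their range. Over all libraries the log2 fold change was -0.30 (95% interval -0.61 to 0.02, edgeR adjusted p = 0.185). In the 6 libraries without high Y-linked counts, which keep DDKO-3 and DDKO-4 alone of the double knockout, it was -0.58 (edgeR adjusted p = 0.0136). With a term for those counts, which compares the same libraries, it was also -0.58 (edgeR adjusted p = 0.0341).

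Ephb4 (chr5:137350109-137378669, plus strand), known as the venous partner of ephrin-B2 in blood vessels and also made by gut epithelium, had 140.3, 153, 153.5 and 140.0 CPM in S-1 to S-4 and 187, 149, 129, 146 and 177 CPM in DDKO-1 to DDKO-5. DDKO-1 and DDKO-5 were above and DDKO-3 below the Smad4 Vil-KO range. The log2 fold change was 0.10 (95% interval -0.14 to 0.34, edgeR adjusted p = 0.549), and it turned to -0.09 in the libraries without high Y-linked counts (edgeR adjusted p = 0.493). The summed level of 12 endothelial markers was 3.95 to 6.53 CPM over the 9 libraries. Pecam1 was the highest of them (means of 1.86 and 2.40 CPM in the 2 genotypes), and Cldn5 alone was at 0 in every library. Ephb4 had at least 128.6 and Efnb2 at least 93.4 CPM. The part of endothelial cells in these levels was not tested. Ephb4 shares 33 exonic bases with Zan, whose level was 103.5 and 68.1 CPM in the 2 genotypes (log2 fold change -0.61, edgeR adjusted p = 0.223).

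Efna3 (chr3:89313899-89322965, minus strand), an A-class ligand, was the least abundant of the 10 genes per exon length. The antisense gene Gm15998 overlaps Efna3. Their shared exonic bases were not counted, and whether counting used the strand is not given in the sources used here. It had 31, 49, 49 and 25 counts in S-1 to S-4 and 2, 0, 18, 9 and 9 counts in DDKO-1 to DDKO-5. Every double-knockout library was below every Smad4 Vil-KO library, and the 0 in DDKO-2 allows a level of up to 3 counts. Efna3 passed the filter through the Smad4 Vil-KO libraries, in which it was high, and with no filter on low counts its edgeR adjusted p was 0.0347. Means were 2.47 ± 0.563 CPM in Smad4 Vil-KO (SD, n = 4) and 0.558 ± 0.506 CPM in double-knockout libraries (SD, n = 5), with a log2 fold change of -2.15 (SE 0.63, edgeR adjusted p = 0.0461). The summed counts gave a Smad4 Vil-KO over double-knockout ratio of 4.60 (95% interval 3.21 to 6.75, counting error only). The call was lost when any Smad4 Vil-KO library was left out (adjusted p from 0.0784 without S-4 to 0.127 without S-3) and without DDKO-1 (adjusted p = 0.0722) or DDKO-4 (adjusted p = 0.0755), all by edgeR. In the libraries without high Y-linked counts the log2 fold change was -1.31 (edgeR adjusted p = 0.0423). With a term for those counts, which compares the same libraries, it was -1.32 (edgeR adjusted p = 0.246). Without DDKO-1 and DDKO-2, the lowest libraries, it was -1.46 (edgeR adjusted p = 0.0224).

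Efna1 (chr3:89271733-89281142, minus strand), the A-class ligand best known as a partner of EphA2, had 83.6, 57.3, 76.1 and 82.9 CPM in S-1 to S-4 and 48.4, 93.6, 49.8, 51.4 and 43.5 CPM in DDKO-1 to DDKO-5. DDKO-2 was the highest of all 9 libraries, and the other 4 double-knockout libraries were lower than every Smad4 Vil-KO library. Over all libraries the log2 fold change was -0.39 (95% interval -0.86 to 0.09, edgeR adjusted p = 0.246). Without DDKO-2 it was -0.63 (edgeR adjusted p = 0.0128), and in the libraries without high Y-linked counts, which also leave out DDKO-2, it was -0.56 (edgeR adjusted p = 0.0275).

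Efna1 and Efna3 lie on the same strand of chromosome 3 with Efna4, which is not among the 10 genes. The gap is 32756 bases between Efna1 and Efna3 and 10424 bases between Efna3 and Efna4. Efna4 had 10.3 ± 0.573 CPM (SD, n = 4) and 7.75 ± 1.14 CPM (SD, n = 5), without overlap, at a log2 fold change of -0.41 (edgeR adjusted p = 0.0792, DESeq2 adjusted p = 0.0497). Without the 3 libraries of high Y-linked counts it was -0.30 (edgeR adjusted p = 0.235). All 3 ligands of the cluster thus had negative log2 fold changes, and by edgeR the adjusted p was under the threshold for Efna3 alone.

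Efnb1 (chrX:99136130-99148991, plus strand), a B-class ligand of the upper crypt, had 125, 124, 129 and 119 CPM in S-1 to S-4 and 94.4, 98.5, 116, 129 and 132 CPM in DDKO-1 to DDKO-5. DDKO-1, DDKO-2 and DDKO-3 were below the Smad4 Vil-KO range, and DDKO-4 and DDKO-5 were just above its highest library. The log2 fold change was -0.125 (95% interval -0.36 to 0.11, edgeR adjusted p = 0.454), -0.02 without the 3 libraries of high Y-linked counts (edgeR adjusted p = 0.894), and 0.02 without DDKO-1 and DDKO-2 (edgeR adjusted p = 0.867). Efnb2 (chr8:8617434-8661242, minus strand), the other B-class ligand, had 127, 138, 129.6 and 129 CPM and 93.4, 107, 126.1, 124 and 118 CPM in the same libraries. Its groups did not overlap, with DDKO-3 just below S-1, and its log2 fold change was -0.20 (95% interval -0.41 to 0.00, edgeR adjusted p = 0.170). Without the same 3 libraries it was -0.06 (edgeR adjusted p = 0.613).

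The spread between libraries was larger in the double knockout for 8 of the 10 genes, as it was for 73.9% of the 14589 genes tested that have a spread in both genotypes. The coefficient of variation of Efnb1 was 3.05% in Smad4 Vil-KO and 15.1% in double-knockout libraries, and that of Epha2 was 25.4% and 46.1%. It was lower in the double knockout for Epha4 (16.5% and 10.6%) and Ephb2 (6.001% and 5.68%). These are descriptions with no test of the spread.

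**Figure D2:**
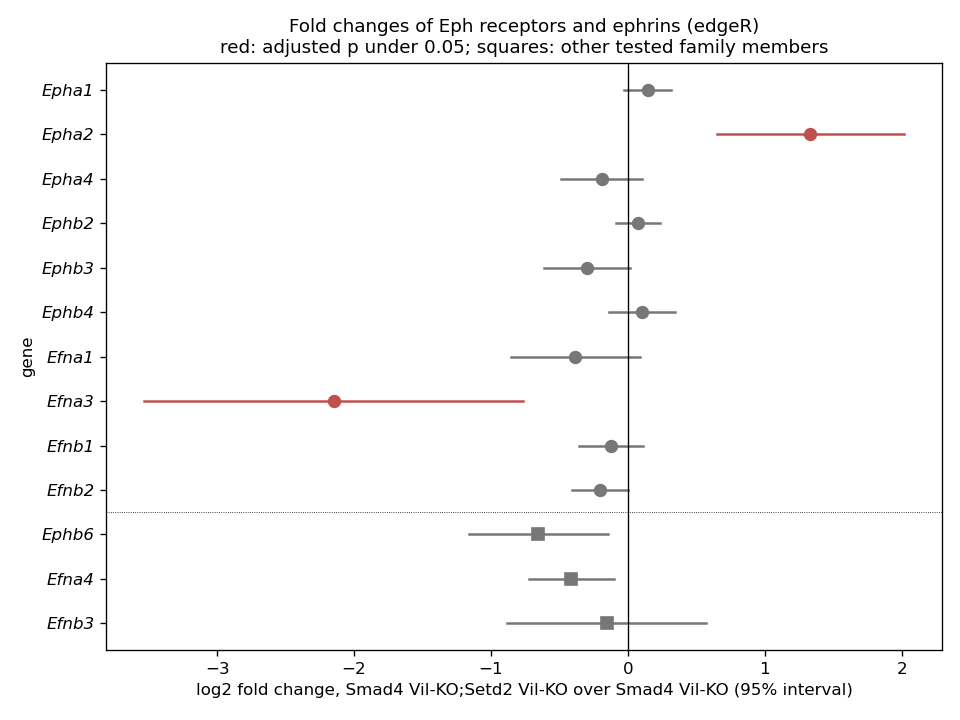
Fitted log2 fold change of double-knockout over Smad4 Vil-KO (horizontal axis, bars: 95% interval) for the 10 genes (circles) and 3 of the 4 other family members tested (squares), by edgeR. Epha5, called higher with an adjusted p of 0.00527, is not drawn, since its fitted value rests on 4 counts in Smad4 Vil-KO libraries. The intervals of Epha2 and Efna3 (red) and of Ephb6 and Efna4 lie to 1 side of 0, and of the genes drawn only the first pair has an adjusted p under 0.05.

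Levels were compared between genes as CPM per kb of exon. In Smad4 Vil-KO mice Efna1 was the highest (41.0 ± 6.69 CPM per kb, SD, n = 4), before Efnb1 (35.99 ± 1.10), Ephb4 (31.6 ± 1.61), Efnb2 (19.1 ± 0.719), Epha1 (13.7 ± 0.539), Ephb2 (11 ± 0.659), Ephb3 (6.73 ± 0.871), Epha2 (3.13 ± 0.797), Epha4 (2.67 ± 0.441) and Efna3 (1.02 ± 0.231). The ranges of neighbours overlapped for Efna1 and Efnb1 and for Epha2 and Epha4, and not for the other neighbours in the order. In the double knockout the order began with Ephb4 (33.95 ± 5.16 CPM per kb, SD, n = 5), Efnb1 (33.0 ± 4.97) and Efna1 (31.3 ± 11.2), whose ranges overlapped in turn. There Epha2 had 7.90 ± 3.64 CPM per kb and lay between Ephb2 (11.6 ± 0.658) and Ephb3 (5.48 ± 1.05), overlapping with both. The exon lengths are unions over all annotated transcripts, which lowers the value of genes with long alternative ends.

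**Figure D3:**
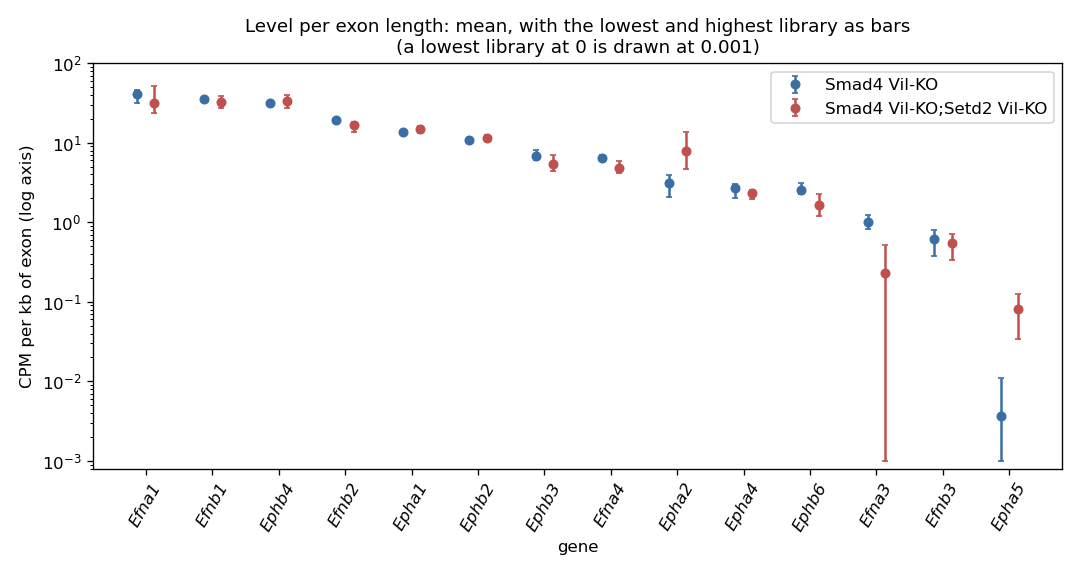
Mean level in CPM per kb of exon (vertical axis, log scale) of the 10 genes and the 4 other family members tested (horizontal axis) in each genotype, with bars from the lowest to the highest library. Epha2 moves from 3.13 to 7.90 CPM per kb and Efna3 from 1.02 to 0.229.

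The family has 12 further genes in the table, 8 receptors and 4 ligands, of which 4 passed the filter. Epha5 (chr5:84054761-84417382, minus strand), better known from the nervous system, had 1, 0, 3 and 0 counts in S-1 to S-4 and 9, 11, 30, 24 and 19 counts in DDKO-1 to DDKO-5. Every double-knockout library was above every Smad4 Vil-KO library, and the ratio of the summed counts was 20.5 (95% interval 7.74 to 76.8, counting error only, edgeR adjusted p = 0.00527). It passed the filter through the double-knockout libraries, in which it was high. Hmgn2-ps1, which lies within Epha5 and shares 0 of its exonic bases, rose from 29.5 to 52.8 CPM (log2 fold change 0.84, edgeR adjusted p = 0.00359). Ephb6, a receptor without kinase activity, had 9.67 ± 1.55 CPM (SD, n = 4) and 6.16 ± 1.98 CPM (SD, n = 5; log2 fold change -0.65, edgeR adjusted p = 0.0851, DESeq2 adjusted p = 0.0459), and without the 3 libraries of high Y-linked counts its log2 fold change was -1.02 (edgeR adjusted p = 0.00926). Efnb3 had 1.95 and 1.76 CPM, with log2 fold changes of -0.16 over all libraries (edgeR adjusted p = 0.784) and 0.20 without those 3 (edgeR adjusted p = 0.730). The other 8 did not pass the filter. Epha3 and Epha8 had 0 counts in every library, which allows up to 3 counts in each, and Epha7 had 16 counts in S-1 and at most 5 in any other library. Epha6, Epha10 and Ephb1 had at most 3 counts in any library, Efna2 between 2 and 9, and Efna5 between 0 and 6.

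A list of 36 genes that act with Eph receptors and ephrins inside the cell was then examined, of which 35 were tested. Of these 3 rose, 3 fell and 29 did not pass (17.1% called against the background of 13.3%), with a median log2 fold change of 0.07. Grb10, an adaptor that binds activated receptor kinases, had 0.696 and 3.31 CPM (log2 fold change 2.26, edgeR adjusted p = 0.0371) and passed the filter through the double-knockout libraries, in which it was high. Rock2, a kinase downstream of RhoA that drives actomyosin contraction, rose from 216 to 286 CPM (log2 fold change 0.40, edgeR adjusted p = 0.00939), and Acp1, a phosphatase of low mass that acts on Eph receptors, rose from 55.6 to 68.0 CPM (log2 fold change 0.29, edgeR adjusted p = 0.0310). Among those that fell were Ptpn13, a phosphatase with PDZ domains that binds B-class ephrins (26.8 to 15.8 CPM, log2 fold change -0.75, edgeR adjusted p = 0.0223), Rin1, a Ras effector (8.85 to 6.28 CPM, log2 fold change -0.50, edgeR adjusted p = 0.0457), and Pick1, a PDZ domain protein (57.3 to 43.8 CPM, log2 fold change -0.39, edgeR adjusted p = 0.0133). With 1 of the 9 libraries left out, Rin1 lost its call in 8 fits (all but that without DDKO-5, edgeR adjusted p up to 0.149), Acp1 in 6 (each Smad4 Vil-KO library, DDKO-3 or DDKO-4, edgeR adjusted p up to 0.0934) and Grb10 in 5 (S-1, S-2, S-3, DDKO-3 or DDKO-4, edgeR adjusted p up to 0.103). Ptpn13 lost it in 3 (S-1, S-3 or S-4), Pick1 in 1 (S-3) and Rock2 in 0 of these fits (edgeR adjusted p up to 0.0396).

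Ephb2 and Ephb3 are themselves targets of Wnt signalling, so 15 other Wnt targets of the crypt were set beside them, of which 14 were tested. By edgeR 0 rose and 2 fell, with 0 and 5 at an unadjusted p under 0.05, a cut whose share over all genes is not given here. DESeq2 called 0 higher and 3 lower, and limma-voom 0 higher and 1 lower. Of all 14593 genes tested DESeq2 called 1461 higher and 1331 lower, and limma-voom 1401 higher and 1523 lower. Nkd1, a feedback inhibitor of the pathway, fell from 4.70 to 1.12 CPM (log2 fold change -2.06, edgeR adjusted p = 0.0192), and Sox9, a transcription factor of crypt progenitors, fell from 74.9 to 54.6 CPM (log2 fold change -0.46, edgeR adjusted p = 0.0439). Lgr5, the stem cell receptor for R-spondins, had 36.7 and 23.3 CPM (log2 fold change -0.66, edgeR adjusted p = 0.136). The 2 called, both lower, are 14.3% of the list, against 6.54% of all genes tested called lower and 13.3% called in either direction. Sox9 lost its call in 8 of the 9 fits with 1 library left out (all but that without DDKO-5, adjusted p up to 0.114) and Nkd1 in 2 (without S-3 or S-4, adjusted p up to 0.0587), all by edgeR. The median log2 fold change of the 14 was -0.31, and 10 of 14 were negative, against 7302 of all 14593 genes tested, while Ephb2 was at 0.07 and Ephb3 at -0.30.

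**Figure D4:**
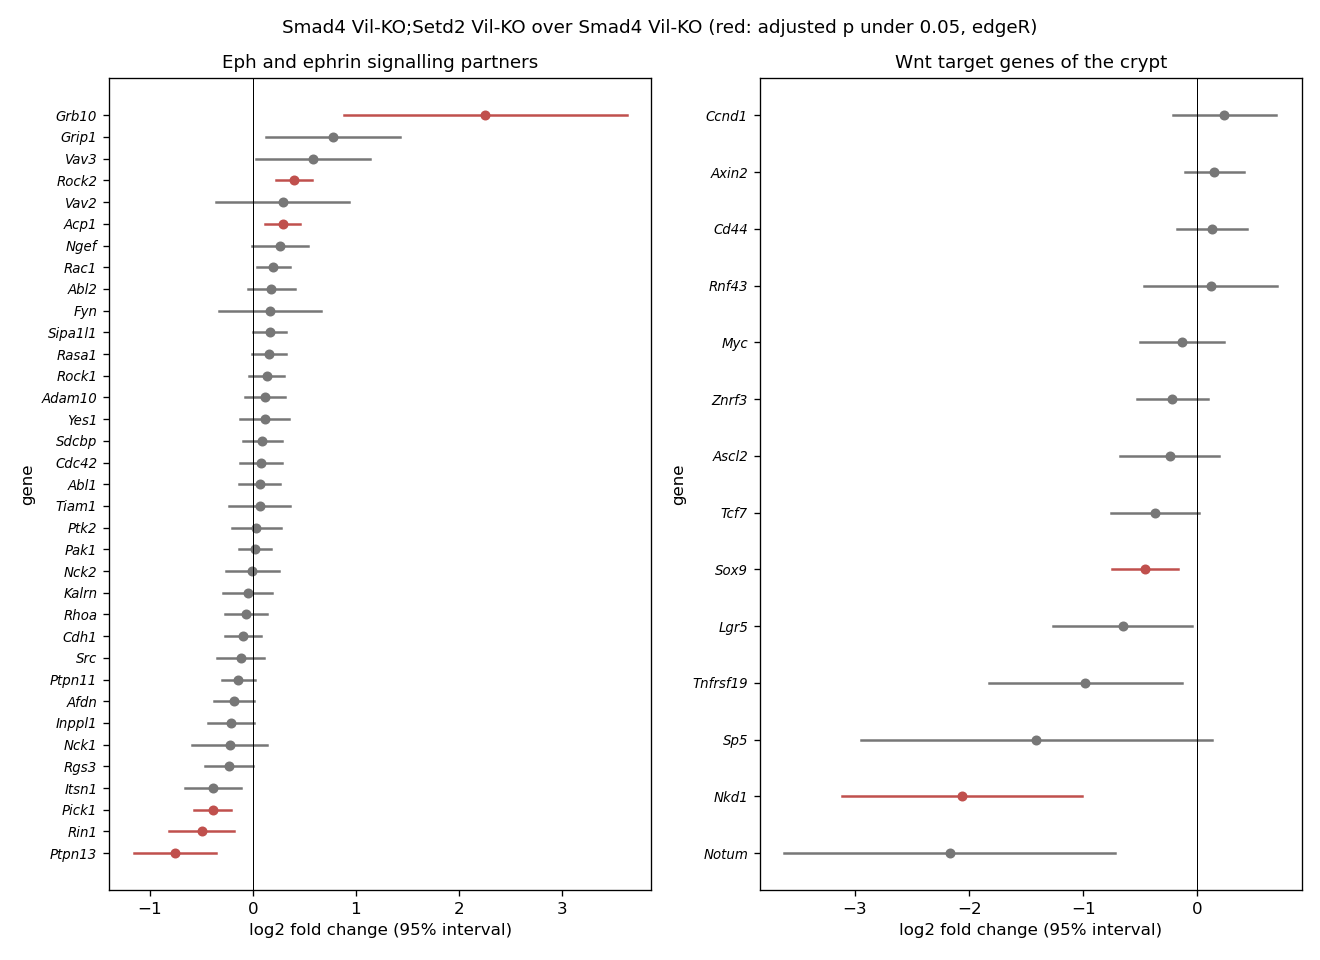
Log2 fold change of double-knockout over Smad4 Vil-KO with its 95% interval (horizontal axes) for the 35 signalling genes tested (left) and the 14 Wnt targets tested (right), with edgeR adjusted p under 0.05 in red. On the left 3 genes rose and 3 fell, and on the right 2 fell.

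Summed levels of markers of the cell types along the crypt axis were compared between the genotypes. None of the 8 lists passed after adjustment over the lists, but with so few libraries 1 list alone could not have passed, even if fully separated. The summed level of 12 crypt base markers was 1496 to 2064 CPM in Smad4 Vil-KO and 1755 to 2024 CPM in double-knockout libraries (exact permutation test, two-sided, p = 0.421), and that of 14 markers of surface colonocytes was 20050 to 21940 and 13090 to 20190 CPM (exact permutation p = 0.0556, 0.148 adjusted over 8 lists). The sum of 15 markers of small intestinal enterocytes was 612 to 695 and 868 to 1989 CPM without overlap (exact permutation p = 0.0159, 0.127 adjusted), and by edgeR 9 of the 13 tested rose and 0 fell (12 and 0 at an unadjusted p under 0.05; 10 and 0 by DESeq2, 8 and 0 by limma-voom), against 6.76% of all genes tested called higher. Of those 9, 5 (Sis, Fabp1, Enpep, Npc1l1 and Apoa1) passed the filter through the double-knockout libraries, in which they were high, so that the count is a description. Of the surface colonocyte markers 2 of 14 rose (Guca2b and Tmigd1) and 2 fell (Slc37a2 and Muc13) by edgeR, which is 28.6% of the list against 13.3% of all genes tested, with 3 and 3 by DESeq2 and 3 and 4 by limma-voom. For each list here the other tools have a larger background. Of all 14593 genes tested DESeq2 called 1461 higher and 1331 lower, and limma-voom 1401 and 1523. Of the goblet cell markers 1 of 8 fell by edgeR (Muc2), with 1 called lower by DESeq2 and 1 by limma-voom, or 12.5% of the list against 6.54% of all genes tested called lower. The sum of 8 goblet cell markers was 11880 to 31030 and 4356 to 13610 CPM (exact permutation p = 0.0317, 0.127 adjusted), and 12 mesenchymal markers summed to 35.8 to 54.7 and 39.8 to 92.5 CPM (exact permutation p = 0.0873). Sums weigh the most abundant genes most. In Smad4 Vil-KO libraries Lypd8 had a mean of 11600 of the 20990 CPM of the surface colonocyte sum. Slc12a2 and Prom1 had 641 and 489 of the 1810 CPM of the crypt base sum. Clca1 had 15990 of the 31030 CPM of the goblet cell sum in S-1. The smallest p that 4 against 5 libraries allow is 0.00794, which for 1 list alone stays above 0.05 after adjustment over 8 lists. The adjusted values therefore do not show that the cell types were unchanged. The part of these markers in the values of Epha2 and Efna3 was not tested.

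**Figure D5:**
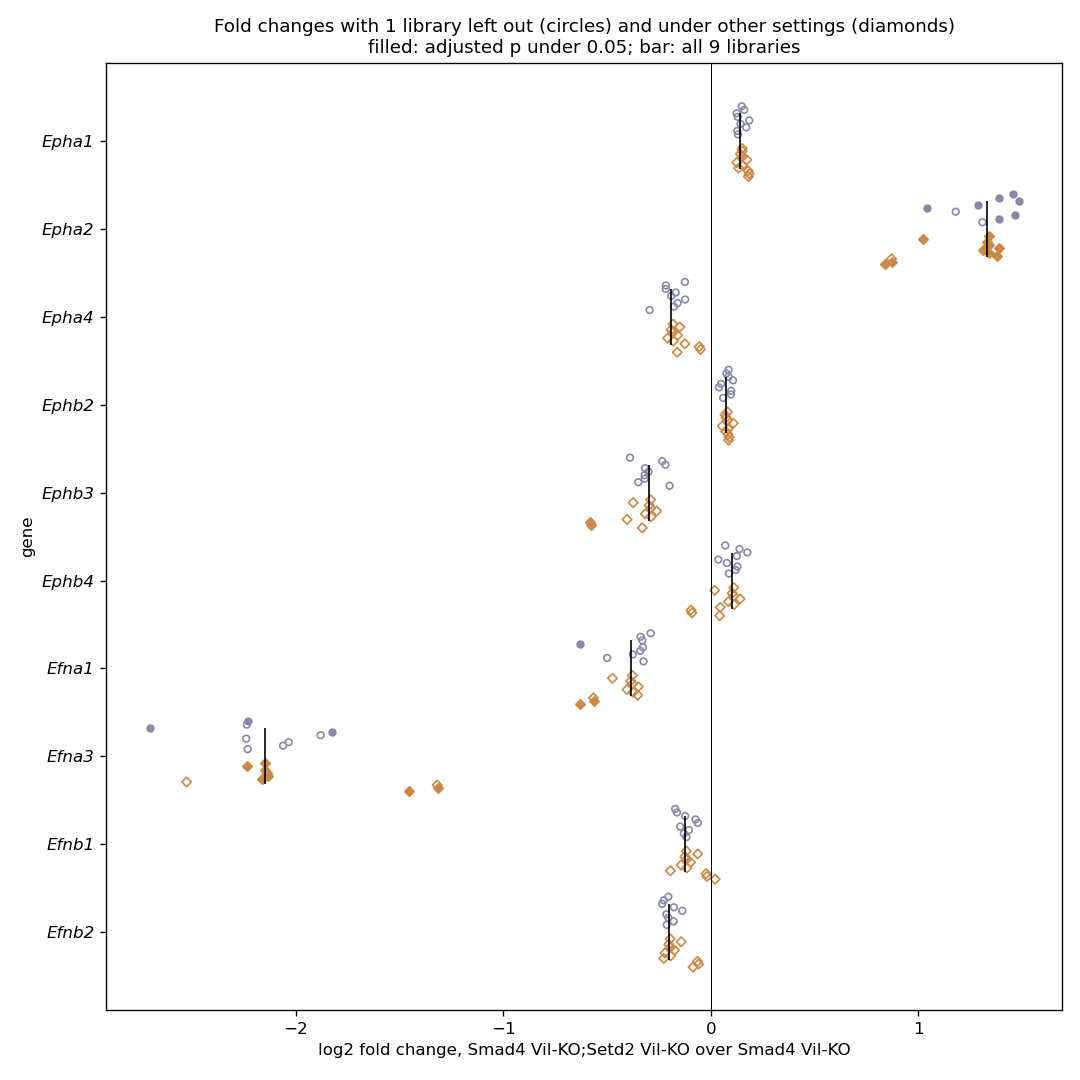
Log2 fold change of each of the 10 genes (horizontal axis) over all 9 libraries (bar), with 1 library left out (circles) and under other settings of the processing (diamonds), filled where the adjusted p is under 0.05. Epha2 runs from 0.84 to 1.48 and Efna3 from -2.71 to -1.31, and Ephb4 and Efnb1 are the genes whose values lie on both sides of 0.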

How the data were processed

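RNA of colonic IECs was sequenced as mRNA libraries, and the file deposited by the authors holds read counts by gene symbol, whole and not normalized. HISAT2 2.0 and mm10 are named in the submitters' processing notes, and the counting program, annotation and strand setting are not given in the sources used here. Of the 46095 symbols 27 look like dates, as a spreadsheet leaves them. Groups came from the labels' genotype. The count model was edgeR 4.0.16 in R 4.3.3: filterByExpr by genotype, TMM factors, glmQLFit and glmQLFTest, with Benjamini-Hochberg adjustment over the 14593 genes tested and a threshold of 0.05. SE was the absolute log2 fold change divided by the square root of F. DESeq2 1.42.0, limma 3.58.1 (voom), other scalings and filters, a replicate block, a term for Y-linked counts (over 1000 in a library) and leaving out each library were alternatives. Summed marker levels were compared with an exact permutation test over 126 splits. The script was tested on simulated data. Exon lengths came from GENCODE and promoters from RefSeq, both of GRCm38, the assembly of mm10. Depth (12487129 to 17120202 counts) sets the precision; intervals on summed counts cover counting error only. Replicates of a genotype differed by more than sampling noise (chi-square per gene at least 9.22).

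All 10 genes and the other family members were named, and of the signalling and Wnt target lists the genes past the threshold. Lgr5, Olfm4, Pecam1, Cldn5 and the called surface colonocyte and goblet cell markers fall outside that rule and were named with their values known. So were the enterocyte markers Sis, Fabp1, Enpep, Npc1l1 and Apoa1, and Lypd8, Slc12a2, Prom1 and Clca1, named for their part in a sum. Zyx, Zan, Hmgn2-ps1 and Gm15998 were named because they overlap genes of the family, and Xist as a check of sex. The genes and lists were chosen with earlier results of these data known. All 9 columns of the table were used.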

Additional observations from a re-analysis of the deposited data

Results flagged for a closer look

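Efna1 stood apart in DDKO-2, where it had 93.6 CPM against 51.4 CPM in the nearest of the other 4 double-knockout libraries. The gap was 0.842 of the whole range of the 5 libraries (Dixon's ratio). It was the only value to pass Dixon's 95% limit among 28 groups examined (14 genes in 2 genotypes), and chance alone passes it in about 1 group in 20.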

How the results depend on the processing

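Without 1 library at a time, between 0 and 1 of the 10 genes was called higher (Epha2 was lost without S-1 or S-4), between 0 and 2 lower, and between 847 and 2696 genes in all; without DDKO-2 both Efna1 and Efna3 were called lower. With a term for Y-linked counts 0 of the 10 were called higher (1 at an unadjusted p under 0.05, edgeR), Ephb3 took the place of Efna3 as the gene called lower, and 1285 genes were called in all. This term leaves the genotype difference to DDKO-3 and DDKO-4 against the Smad4 Vil-KO libraries, as does leaving out the libraries with high counts. In the libraries without high Y-linked counts 3 of the 10 were called lower (Efna1, Efna3 and Ephb3). There 2930 of 15138 genes tested were called in all, with DDKO-3 and DDKO-4 as the only double-knockout libraries. With all libraries limma-voom called 2924 of 14593. At least 10 counts in every library left 0 called lower (0 at an unadjusted p under 0.05, edgeR), since Efna3 was then not tested.

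Without DDKO-1 and DDKO-2 together, an alternative chosen after seeing the data, 1 of the 10 genes was called higher (Epha2) and 2 lower (Efna1 and Efna3), with 2154 called in all.

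Replicate numbers did not pair the libraries, since same-numbered libraries had correlations of deviations from -0.128 to 0.0773. With the replicate block 1618 genes were called in all, 1 of the 10 higher and 0 lower (2 at an unadjusted p under 0.05, edgeR), with Efna3 at -2.53 (edgeR adjusted p = 0.0614).

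The direction held under every alternative for 8 of the 10 genes. Ephb4 turned to -0.095 with the Y-linked term and -0.091 without those libraries, and Efnb1 to 0.021 without DDKO-1 and DDKO-2. Efnb3 turned to 0.20 under the first pair of settings, which compare the same libraries. Smad4 turned to -0.18 with limma-voom, -0.14 with the replicate block, -0.71 with the Y-linked term, -0.70 without those libraries, -0.12 without DDKO-1 and DDKO-2, and, with 1 library left out, ran from -0.11 (without DDKO-2; -0.01 without DDKO-5) to 0.37 (without S-1). Of 199 gene-by-setting values for the 10 genes 180 kept direction and side of the threshold. The cause of these changes was not tested. Epha5 was not tested at the stricter filter or without DDKO-2, DDKO-3, DDKO-4 or DDKO-5, and it was called with no filter on low counts (edgeR adjusted p = 0.00248). Its fitted log2 fold change ran from 3.81 to 5.47 (without S-3) with 1 library left out. Among the signalling genes and Wnt targets, Rin1 lost its call in 14 settings of 20, Sox9 in 10 of 20, Acp1 in 8 of 20, Grb10 in 5 of 19, Nkd1 in 5 of 19, Ptpn13 in 4 of 20 and Pick1 in 2 of 20, while Rock2 kept it in all 20.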

Other observations

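Among crypt base genes that are not in the family, Olfm4, a secreted glycoprotein of stem and progenitor cells, differed most. It had between 0.512 and 2.97 CPM in Smad4 Vil-KO libraries and 5.38, 15.4, 94.6, 97.4 and 52.3 CPM in DDKO-1 to DDKO-5 (log2 fold change 5.14, edgeR adjusted p = 0.00568). Olfm4 was picked for description with its values in view, and it passed the filter on low counts through the double-knockout libraries. Of the other 11 crypt base markers 0 were called by edgeR (1 higher and 2 lower at an unadjusted p under 0.05), while DESeq2 called 1 higher and 1 lower and limma-voom 0 higher and 1 lower among them. Of all 14593 genes tested DESeq2 called 1461 higher and 1331 lower, and limma-voom 1401 and 1523.

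The genes whose libraries deviated most like those of a member, after subtraction of the genotype means over 9 libraries, were Cluh (r = 0.947) and Prpf38a (r = 0.947) for Ephb2, Kxd1 (r = 0.963) for Ephb3, Commd1 (r = 0.992) for Efnb1 and Dnah10 (r = 0.979) for Efnb2, each chosen as the highest of 13696 genes, which is a description only.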
